A study of Mus musculus with 4 samples.

Results

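Laminins are secreted proteins of the basement membrane, and integrins are the cell surface receptors through which cells hold on to laminin and to other matrix or cell surface proteins. The genes described here are all those named by the array annotation as a laminin chain (Lama, Lamb or Lamc and a number), an integrin alpha subunit (Itga) or an integrin beta subunit (Itgb). They number 34 of the 18193 genes that had a probe set naming 1 gene, and are measured by 73 of 34945 such probe sets. They comprise 10 laminin chains, 16 alpha subunits and 8 beta subunits. Itga11 and Itgad were not analysed here, because no probe set names either of them alone. All 34 gene IDs were found with the same symbol in the RefSeq gene table of GRCm38.p6.

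The RNA came from molar teeth of 60 Swiss-Webster mouse pups of both sexes, aged 1 to 10 days after birth, whose teeth were pulled by hand, pooled and ground together. This single pool was hybridised to 4 Affymetrix Mouse Genome 430 2.0 arrays, which form 1 group, numbered here as in the sample titles. The arrays repeat 1 pool, so each SD is technical, and no p-value speaks of differences between animals, ages or tissues. The control tissues named in the study's design are not analysed here.

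Each laminin is a trimer of 1 alpha, 1 beta and 1 gamma chain. Each integrin is a pair of 1 alpha and 1 beta subunit, and the pair decides which ligand is bound. In a growing tooth a basement membrane lies between the enamel epithelium and the dental papilla, and it is lost below the cells that go on to secrete enamel. The chains Lama3 and Lamb3 and the integrin of Itga6 and Itgb4 anchor stratified epithelia through hemidesmosomes, and inherited defects of LAMA3, LAMB3 and ITGB6 are known to affect human enamel.

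Signals are MAS5 signal units on a linear scale. The background threshold of an array was the 95th percentile of its 86 probe sets for olfactory, vomeronasal and taste receptor genes, and it was 996, 1097, 1295 and 1266 on arrays 1 to 4 (1163 ± 142, SD, n = 4). A gene is called above background here when any of its probe sets exceeded the threshold on all 4 arrays. Its values come from the probe set whose log2 signal had the highest mean. Probe sets differ in how well they bind, so a higher signal of 1 gene than of another is not read as more mRNA. With 4 arrays an exact one-sided sign test cannot go below p = 0.0625, so adjusted p-values come from a one-sided limma test fitted across all genes. Pearson's r between arrays, across probe sets above background, lay between 0.968 and 0.978 over the 6 pairs. Marker genes of tooth (6 of 6), epithelium (7 of 7), mesenchyme (7 of 7), endothelium (6 of 6) and skeletal muscle (5 of 5) were above background, compared with 51.6% of all genes. The Schwann and nerve markers Sox10, Mbp and Stmn2 also passed. Leukocyte, osteoclast, platelet and cartilage markers passed only in part, as given below. The RNA therefore holds several cell types. In such a pool, fewer cells of a type and less RNA per cell cannot be told apart.

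Of the 34 genes, 23 were above background, compared with 51.6% of all genes. The limma test gave 22, compared with 51.1% of all genes. All 10 laminin chains passed, 7 of 16 alpha subunits passed and 6 of 8 beta subunits passed. By main known use, 8 of 9 measured epithelial genes, 5 of 6 mesenchymal genes, 3 of 7 leukocyte genes and 7 of 12 genes of broad use were above background. The median log2 ratio of signal to threshold was 1.51 for the 34 genes and 0.51 for all genes. It was 2.61 for the laminin chains, 0.46 for the alpha subunits and 1.25 for the beta subunits. A gene with more probe sets has more chances to pass. Of the 20 members with 2 or more probe sets, 15 (75%) passed, compared with 68.4% of all genes of that kind. Of the 14 members with 1 probe set, 8 (57.1%) passed, compared with 35.2%.

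**Figure D1:**
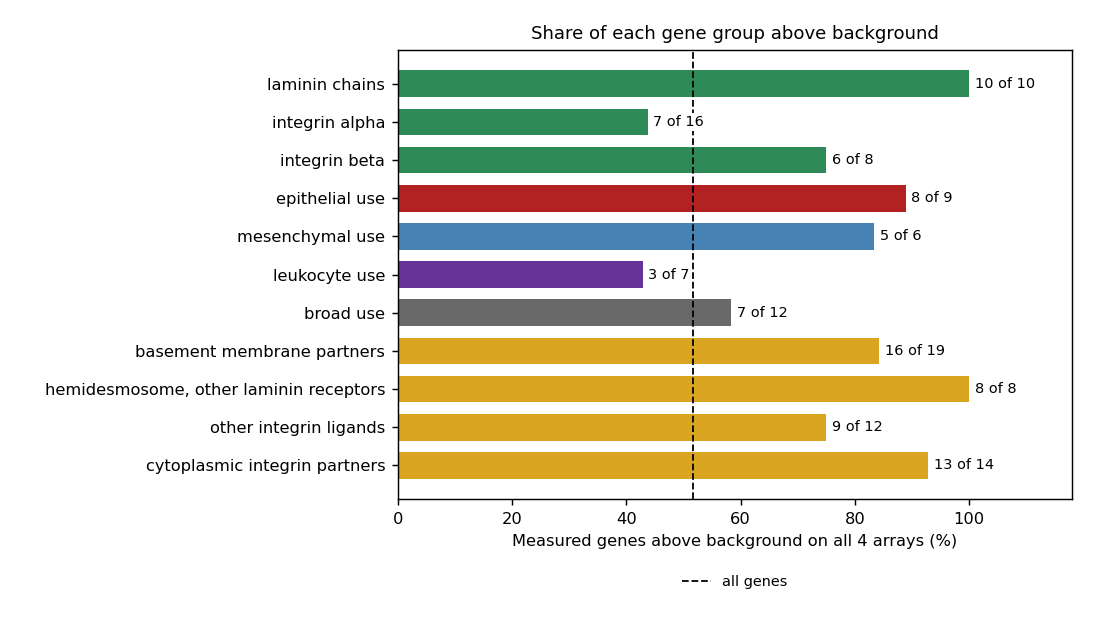
Bars give the percentage of the measured genes of each group that were above background on all 4 arrays, with the counts at the bar ends, and the dashed line is the 51.6% of all genes. The laminin chains (10 of 10) and the hemidesmosome and other laminin receptor genes (8 of 8) are at 100%, while alpha subunits (7 of 16) and leukocyte genes (3 of 7) lie left of the line.

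The RefSeq promoter table of GRCm38.p6 held a window for 22 of the 34 members, 15 of them above background. The 250 bases before the start site, in the first window listed per member gene, were searched on both strands for 3 motifs. Values for all windows instead count every window, also where a gene has several, so the sets are built differently. The TATA box (TATAAA) was in 0 of the 22 member windows, whereas 12.4% of all 32851 windows held it. The GC box, which binds Sp factors (GGGCGG), was in 8 of the 22, compared with 32.7% of all windows. The core bound by the leukocyte factor PU.1 (GAGGAA) was in 10 of the 22, compared with 23.3% of all windows. It was in 7 of the 15 members above background and in 3 of the 7 others. The number of CG dinucleotides per window had a median of 10.5 in the members (range 0 to 22) and of 6 in all windows. It was 11 for members above background and 10 for the others. Such matches describe letters and do not show that a factor binds. The 4 windows printed here show CG-poor and CG-rich members among epithelial, broad-use and leukocyte genes. Capitals mark GC boxes and PU.1 cores on either strand.
Lamb3, chr1:193301744-193301993 (+ strand): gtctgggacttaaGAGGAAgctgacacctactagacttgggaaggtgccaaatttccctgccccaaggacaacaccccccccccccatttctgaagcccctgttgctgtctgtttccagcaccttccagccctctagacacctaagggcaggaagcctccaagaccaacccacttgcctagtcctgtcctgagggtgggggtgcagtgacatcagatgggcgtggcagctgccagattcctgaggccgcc
Itga3, chr11:95076715-95076964 (- strand): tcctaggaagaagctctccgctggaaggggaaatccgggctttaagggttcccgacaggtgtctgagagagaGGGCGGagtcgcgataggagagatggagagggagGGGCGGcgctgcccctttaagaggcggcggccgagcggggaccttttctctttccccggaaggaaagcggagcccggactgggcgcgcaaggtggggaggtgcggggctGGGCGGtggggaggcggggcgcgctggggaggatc
Itgb5, chr16:33829415-33829664 (+ strand): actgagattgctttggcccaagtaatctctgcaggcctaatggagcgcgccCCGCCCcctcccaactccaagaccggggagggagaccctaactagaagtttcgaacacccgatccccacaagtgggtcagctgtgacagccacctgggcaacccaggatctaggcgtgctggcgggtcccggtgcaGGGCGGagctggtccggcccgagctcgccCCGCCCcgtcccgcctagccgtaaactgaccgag
Itgam, chr7:128062390-128062639 (+ strand): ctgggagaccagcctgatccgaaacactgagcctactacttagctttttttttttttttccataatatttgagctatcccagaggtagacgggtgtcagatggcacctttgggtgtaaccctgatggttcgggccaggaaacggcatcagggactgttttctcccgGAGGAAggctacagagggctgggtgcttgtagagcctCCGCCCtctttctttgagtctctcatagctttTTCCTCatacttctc
The Lamb3 window, of a laminin chain of stratified epithelium, held 2 CG dinucleotides and 1 PU.1 core. The Itga3 window, of an epithelial laminin receptor, held 22 CG dinucleotides and 3 GC boxes, and that of Itgb5, a widely used beta subunit, held 18 and 3. The Itgam window, of a subunit of myeloid cells, held 6 CG dinucleotides, 1 GC box and 2 PU.1 cores.

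The laminin chains of stratified epithelium had signals far above the threshold with little spread between arrays. Lamb3, the beta chain of the hemidesmosomal laminin, had signals of 56086, 55146, 51274 and 66388 on arrays 1 to 4 (57224 ± 6455, SD, n = 4). Its lowest ratio to the threshold was 39.6, on array 3, and array 4 was the highest in signal. Lama3, the alpha chain that joins Lamb3, had 44525, 43758, 44105 and 47201 (44897 ± 1567). Its SD of log2 signal of 0.050 was the lowest of the 23 members above background. The log2 ratios to the threshold were 5.62 ± 0.11 for Lamb3 and 5.28 ± 0.08 for Lama3 (SE, n = 4), each with a limma adjusted p of 1.45e-20. Both probe sets carry the suffix _a_at, which marks sequence shared by transcripts of 1 gene. The other probe set of Lama3 exceeded the threshold on 0 arrays (759 ± 219), so without suffixed probe sets Lama3 was not above background.

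Lama5, the alpha chain of most adult epithelial and vessel basement membranes, had signals of 7504, 10171, 7868 and 8351 (8474 ± 1184, SD, n = 4). All 4 arrays lay at least 6.08-fold over the threshold, with array 2 the highest by this probe set. A second Lama5 probe set also passed but was lowest on array 2, at 3884. The third exceeded the threshold on 0 arrays (60.5 ± 20.1). Lama1, the alpha chain of the early embryonic basement membrane, had 2496, 2501, 2673 and 2213. Its values were all above the threshold, by 1.75-fold on array 4 and up to 2.51-fold on array 1 (limma adjusted p = 9.65e-07).

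The alpha chains linked to mesenchyme, muscle and vessels also passed on every array. Lama2, the alpha chain of muscle and nerve basement membranes, had 3847, 4139, 4230 and 4658, and array 4 was the highest. Lama4, the alpha chain of vessels and mesenchymal cells, had 5818, 5678, 5682 and 6474. The log2 ratios to the threshold were 1.86 ± 0.05 for Lama2 and 2.35 ± 0.08 for Lama4 (SE, n = 4), with limma adjusted p-values of 2.03e-12 and 7.74e-15. Skeletal muscle markers were above background for 5 of 5 genes, with a summed signal of 48835 to 57497 over the arrays, and endothelial markers for 6 of 6, with 20472 to 22234. The Schwann and nerve markers Sox10, Mbp and Stmn2 were also above background. Their signals were 1968 ± 530, 4957 ± 881 and 5174 ± 508 (SD, n = 4). The part of muscle, vessels and nerve in the Lama2 and Lama4 signals was not tested.

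The beta and gamma chains that pair with many alpha chains were all above background. Lamb1, the common beta chain, had 14859, 10394, 10209 and 9468 (11232 ± 2451, SD, n = 4), with array 1 the highest by this probe set. Of the 4 Lamb1 probe sets, 3 passed. Lamb2, the beta chain of nerve-muscle contacts, kidney and vessels, had 3462, 3220, 3835 and 2525, with array 4 the lowest. The Lamb2 values lay 1.99-fold to 3.48-fold over the threshold. Lamc1, the gamma chain of most laminins, had 23729, 22507, 25374 and 28563 (25043 ± 2624). Its other probe set exceeded the threshold on 2 arrays. Lamc3, a gamma chain of few tissues, had 1900, 2706, 2373 and 2288, at least 1.81-fold over the threshold, and both of its probe sets passed (limma adjusted p = 5.53e-06).

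**Figure D2:**
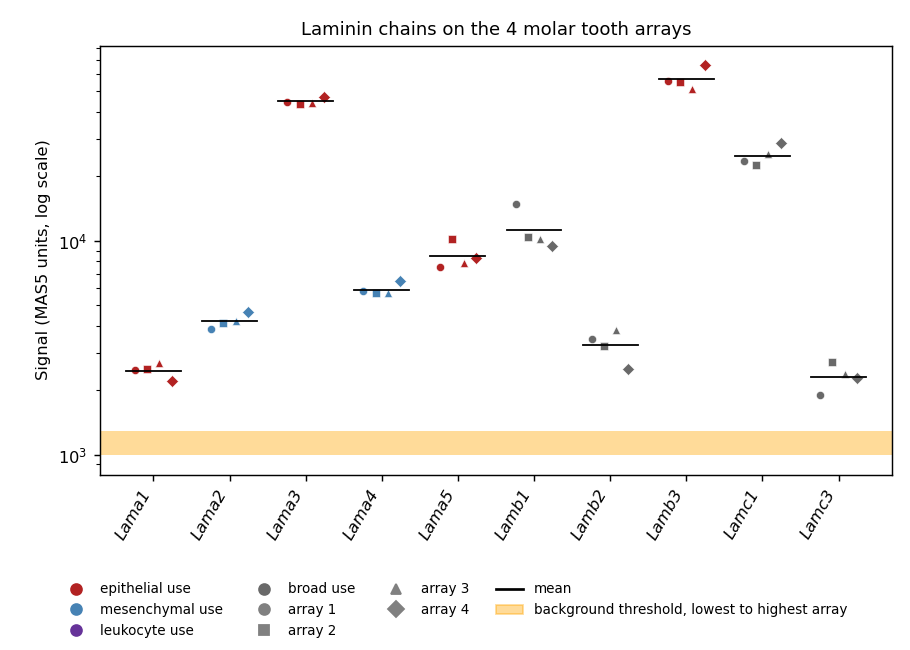
Points are the signals of the 10 laminin chains on each of the 4 arrays (log scale, MAS5 units), coloured by main use, and black lines are means. The orange band spans the threshold from 996 to 1295 over the arrays, and every point lies above it.

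In each of the 13 laminin trimers counted, every chain was above background. The trimer count follows from the chain calls, because every measured laminin chain passed, and it adds no further result. The trimers counted include each of Lama1, Lama2, Lama4 and Lama5 with Lamb1 and Lamc1, the laminins of embryonic, muscle, vascular and epithelial basement membranes. This is a count of transcripts in a mixed pool and does not show which chains were made in the same cell.

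Among epithelial integrin subunits, the laminin receptors were clearly above background. Itga6, the alpha subunit of hemidesmosomes, had signals of 31690, 21090, 25356 and 26255 (26098 ± 4356, SD, n = 4), with array 1 the highest and array 2 the lowest. Its second probe set gave 15303, 15209, 15261 and 15172, a much narrower range. Itgb4, its partner in hemidesmosomes, had 9054, 9016, 8643 and 10669. The log2 ratios to the threshold were 4.48 ± 0.17 for Itga6 and 3.01 ± 0.10 for Itgb4 (SE, n = 4), with limma adjusted p-values of 1.8e-19 and 2.7e-17. Itga3, which pairs with Itgb1 and binds the laminins of Lama3 and Lama5, had 12756, 12257, 9424 and 12401. Array 3 was the lowest for Itga3, although it remained 7.28-fold over the threshold. All 3 probe sets of Itga3 passed.

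Itgb6, an epithelial subunit that pairs with Itgav and activates latent TGF-beta, had 4510, 3947, 4787 and 7333 (5144 ± 1500, SD, n = 4). Array 4 was the highest by this probe set, and its second probe set gave 4184, 4236, 3942 and 4340, with less difference between arrays. The lowest ratio to the threshold was 3.60, and the limma adjusted p was 5.35e-13. Itga2, a collagen receptor subunit of epithelia and platelets, had 1270, 1660, 1925 and 1192. It exceeded the threshold on 3 arrays and missed it on array 4, at 0.941 of the threshold, so it was not called (limma adjusted p = 0.0923). Epithelial markers were above background for 7 of 7 genes, among them Krt5 and Krt14, the keratins of basal cells, with 117973 ± 13649 and 84504 ± 6055. The summed signal of the 7 was 263466 to 282089 over the arrays. Whether dental or oral epithelium gave the epithelial laminin and integrin signals was not tested.

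The widely used subunits Itgb1, Itgav and Itgb5 were all above background. Itgb1, the partner of most alpha subunits, had 24332, 24164, 23246 and 28203 (24986 ± 2197, SD, n = 4), with array 4 the highest. Itgav, the alpha subunit of the receptors for vitronectin and latent TGF-beta, had 40345, 45556, 40623 and 43824 (42587 ± 2532). Itgb5, a vitronectin receptor subunit that pairs with Itgav, had 28350, 31448, 27799 and 31429 (29756 ± 1955). The lowest ratio to the threshold on any array was 18.0 for these 3 genes, and the limma adjusted p-values were 3.82e-20, 1.45e-20 and 2.5e-20. All 4 probe sets of Itgb5 passed, compared with 2 of 6 for Itgb1 and 2 of 5 for Itgav.

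Other subunits of broad use were near or below the threshold. Itgb3, which pairs with Itgav in osteoclasts and vessels and with Itga2b in platelets, had 842, 752, 392 and 920, below the threshold on all 4 arrays. Its second probe set exceeded the threshold on array 2 alone, at 1136, with 135, 175 and 150 on the others. Itgb8, another partner of Itgav, had 434, 1003, 658 and 718, below it on all 4 arrays. The osteoclast markers Ctsk and Acp5 had 22447 ± 3408 and 10990 ± 2007, while Oscar exceeded the threshold on 3 arrays and Calcr on 0. A signal below the threshold does not show that a transcript was absent.

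Itga5, the alpha subunit of the main fibronectin receptor, had 1130, 750, 803 and 743 and exceeded the threshold on array 1 alone. None of its 4 probe sets passed on all arrays. Itga9, which binds tenascin and other ligands, had 1241, 1022, 1670 and 1676 and missed the threshold on array 2. Itga2b, the alpha subunit of the platelet fibrinogen receptor, had 1699, 2109, 1965 and 1222 and missed it on array 4, at 0.965 of the threshold. The limma test, which weighs the mean over the 4 arrays, called Itga2b (adjusted p = 0.0102) and did not call Itga9 (adjusted p = 0.236). Of 5 platelet markers, 2 were above background, Pf4 and Gp1bb, compared with 51.6% of all genes. Ppbp, Gp9 and Gp6 exceeded the threshold on 0 arrays. The summed signal of all 5 was 8228 to 8896, and Pf4 alone had 6251 ± 260 (SD, n = 4). The part of platelets in the Itga2b signal was not tested.

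Of the mesenchymal integrin subunits, 3 of 4 measured were above background, compared with 51.6% of all genes. Itga1, a collagen receptor subunit of smooth muscle and fibroblasts, had 2033 ± 255 (SD, n = 4; limma adjusted p = 0.000149). Itga8, which binds nephronectin, had 3431 ± 641. The other probe sets of Itga1 (617 ± 317) and Itga8 (520 ± 59.6) exceeded the threshold on 0 arrays. Itga10, a collagen receptor subunit of cartilage, had 4265 ± 658, and its lowest ratio to the threshold was 2.55. Of 4 cartilage markers, Col2a1 passed with 4118 ± 918, Acan and Col9a1 exceeded the threshold on 2 arrays each, and Matn1 on 0. Itga7, the laminin receptor subunit of skeletal muscle, had 954, 1078, 1148 and 1545 and exceeded the threshold on array 4 alone. Its mean log2 ratio to the threshold was 0.01 ± 0.10 (SE, n = 4), while 5 of 5 skeletal muscle markers passed.

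Among the leukocyte integrins, Itga4 was above background, and the beta subunits Itgb2 and Itgb7 passed close to the threshold. The alpha subunits that are found mainly on leukocytes were below the threshold on all 4 arrays. Itgal, of lymphocytes and other leukocytes, had 656 ± 168 (SD, n = 4), and Itgax, of dendritic cells and macrophages, had 442 ± 170. Itgam, of myeloid cells, had 498, 97, 480 and 169, with arrays 2 and 4 the lowest. Itgae, of T cells within epithelia, had 344 ± 162. In the RefSeq gene order Itgam, Itgax and Itgad lie side by side.

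Itgb2, the beta subunit shared by Itgal, Itgam and Itgax, had 1144, 1242, 1380 and 1537. Every array lay just above its threshold, by 1.07-fold to 1.21-fold, and the limma test did not call it (adjusted p = 0.352). Itgb7, a beta subunit of lymphocytes, had 1032, 2074, 1711 and 1453, from 1.04-fold to 1.89-fold over the threshold, and also missed the limma threshold (adjusted p = 0.0694). Against the 99th percentile of the receptor probe sets, neither was above background and the leukocyte count fell from 3 to 1 of 7, while 48.2% of all genes passed. Itga4, which is used by leukocytes and also by mesenchymal and neural crest cells, had 6032, 6922, 6279 and 5843 (6269 ± 470), at least 4.61-fold over the threshold (limma adjusted p = 5.64e-15). That value rests on 1 of its 5 probe sets.

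Of 11 measured leukocyte markers, 8 were above background, compared with 51.6% of all genes. The summed signal of the 11 was 41655 to 47220 over the arrays, and Csf1r had the largest part of it. Csf1r, the receptor of the macrophage growth factor CSF1, had 20413 ± 2425, Lyz2 of myeloid cells had 6475 ± 814, and Ptprc, the pan-leukocyte gene, had 1538 ± 185 (limma adjusted p = 0.0529). The T cell genes Cd3e and Cd3g and the B cell gene Cd79a were not above background, and exceeded the threshold on 1, 0 and 0 arrays. The part of leukocytes in the Itga4, Itgb2 and Itgb7 signals was not tested.

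**Figure D3:**
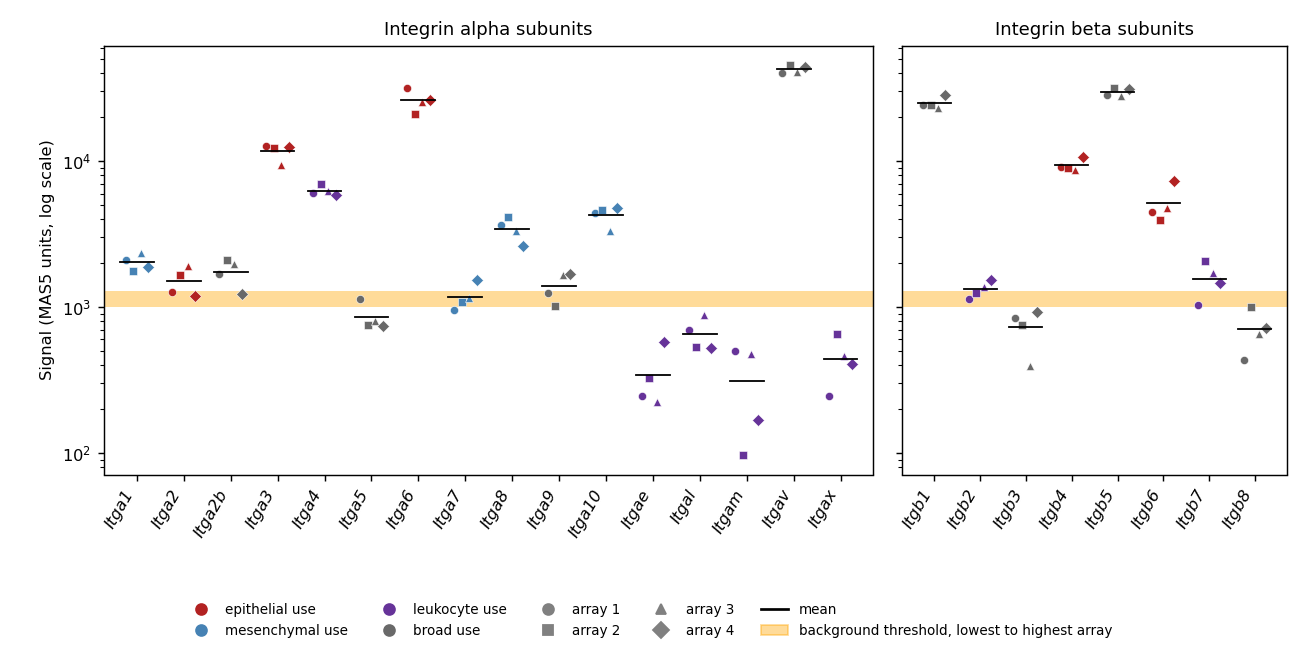
Points are the signals of 16 alpha (left) and 8 beta (right) subunits on each of the 4 arrays (log scale, MAS5 units), coloured by main use, with means as black lines and the threshold, 996 to 1295 over the arrays, as an orange band. Itgav, Itga6, Itgb1 and Itgb5 lie far above the band, Itgb2 and Itgb7 lie at its edge, and Itgae, Itgal, Itgam and Itgax lie below it.

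Of 24 known integrin pairs, 22 had both subunits measured, and in 11 both were above background. Among the pairs of Itgb1, 7 of 11 passed, with Itga1, Itga3, Itga4, Itga6, Itga8, Itga10 and Itgav. The remaining 4 were Itga6 with Itgb4, Itgav with Itgb5, Itgav with Itgb6, and Itga4 with Itgb7. None of the 3 measured pairs of Itgb2, and neither of the 2 pairs of Itgb3, had both subunits above background. The pair of Itga4 and Itgb7 rests on the Itgb7 signal near the threshold, and with the 99th percentile the count of pairs was 10. The pairs share subunits, so they are not independent of each other.

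Other components of the basement membrane and of the adhesion machinery were measured alongside. Of 53 measured partner genes, 46 were above background, compared with 51.6% of all genes. The basement membrane list had 16 of 19, with Col4a1 and Col4a2, the ubiquitous collagen IV chains, at 49734 ± 2249 and 22343 ± 2659 (SD, n = 4), and Hspg2, for perlecan, at 19037 ± 2259. Col4a3 (602 ± 344) and Col4a4 (183 ± 73.9), the chains of kidney and other specialised membranes, exceeded the threshold on 1 and 0 arrays, and Smoc1 (1681 ± 604) on 3. Hemidesmosome and non-integrin laminin receptor genes had 8 of 8, with Plec, for the linker plectin, at 29065 ± 3926, Cd151, a tetraspanin bound to laminin receptors, at 28766 ± 2383 and Bcam, a receptor of Lama5, at 24318 ± 2319.

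Ligands other than laminin had 9 of 12 above background, compared with 51.6% of all genes. Tnc (tenascin C), Fn1 (fibronectin) and Cdh1, for E-cadherin, a ligand of Itgae, had 44161 ± 2714, 37142 ± 4625 and 28269 ± 3493. Vtn, for vitronectin, and Madcam1, a ligand of Itgb7 pairs, exceeded the threshold on 0 arrays, with 620 ± 167 and 642 ± 161. Vcam1, a ligand of Itga4, had 1259 ± 224 and exceeded it on 2 arrays. Cytoplasmic partners of integrins had 13 of 14, with Pxn (paxillin) at 19562 ± 1724, Vcl (vinculin) at 18964 ± 2776 and Tln1 (talin) at 17719 ± 1423. Fermt3, the kindlin of blood cells, had 1187 ± 174 and exceeded the threshold on 2 arrays.

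Probe sets of the same gene often disagreed. Of the 73 member probe sets, 36 (49.3%) exceeded the threshold on all 4 arrays, compared with 42.5% of all probe sets naming 1 gene. Among the 20 members with 2 or more probe sets, all passed in 5, some passed in 10 and none passed in 5. The 5 in which all passed are Lamc3, Itga3, Itga6, Itgb5 and Itgb6. The dimmest probe sets of Itgav and Itgb1 had mean signals of 132 and 86.4 and exceeded the threshold on 0 arrays. Where the median probe set stood for the gene, the alpha subunit count was 3 of 16 and the pair count 1 of 22, and Itga1, Itga4, Itga8, Itgav and Itgb1 were then not above background. The laminin count was then 10 of 10. By that rule 39.3% of all genes were above background.

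**Figure D4:**
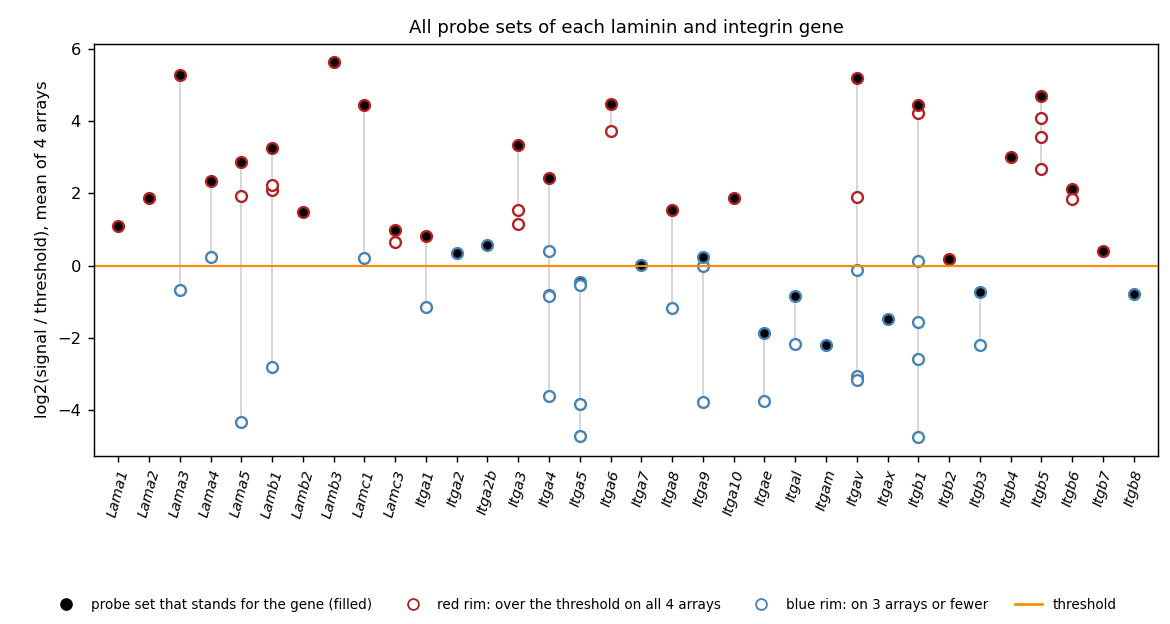
Each point is 1 probe set of a laminin or integrin gene, placed by its mean log2 ratio of signal to threshold over 4 arrays, and the orange line at 0 is the threshold. Filled points stand for the gene; Itgb1 has 2 of its 6 probe sets with a red rim (over the threshold on all 4 arrays), and Itgb5 has 4 of 4.

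The spread between arrays was small for bright members and larger for dim ones. The 23 members above background had a median SD of log2 signal of 0.18, from 0.050 (Lama3) to 0.43 (Itgb7), and all genes above background had 0.16. The 11 others had a median of 0.36, from 0.29 (Itga5) to 1.16 (Itgam), and all genes not above background had 0.62. Of the 23, 10 had their highest signal on array 4, among them Lama2, Lama3, Lama4, Lamb3, Lamc1 and Itgb6, while 34.6% of all genes above background did. The median deviation of array 4 from the gene means was 0.073 on the log2 scale for the 23 members and 0.025 for all genes above background.

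**Figure D5:**
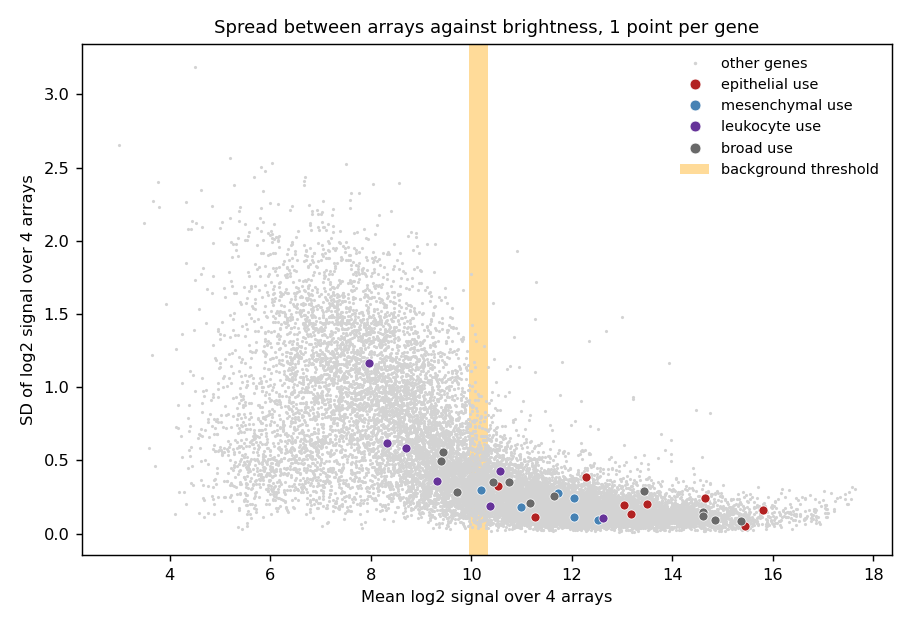
Each point is 1 gene, placed by its mean log2 signal and the SD of its log2 signal over the 4 arrays, with laminin and integrin genes coloured by main use, all other genes in grey and the threshold as an orange band. Members to the right of the band have SDs of 0.43 or less, and Itgam, far to its left, has 1.16.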

How the data were processed

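Molar tooth RNA of 1 pool was measured on 4 arrays. The authors' deposited table holds linear intensity values of 45101 probe sets. MAS5 made them, per the submitters' processing notes, in a version and with settings not given in these sources. The mean without the lowest and highest 2% was 2500 on each array, so values share a scale. Depth does not exist for arrays, and their number limits the precision. The 64 control probe sets were left out, 932 probe sets name several genes and 9160 none.

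Members, lists, use classes and alternatives were chosen with earlier results of these data known. The text names all members, and of each partner list the 3 brightest above background and up to 3 not above it in alphabetical order; markers were named after their values were seen. The fit used limma 3.58.1 in R 4.3.3 on log2(signal/threshold), one-sided, with eBayes trend, Benjamini-Hochberg adjusted over 18193 genes, at 0.05. Alternatives were other thresholds, a testis and retina background, 3 of 4 arrays, limma, quantile normalization, other probe set rules, other use classes and leaving out each array.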

Additional observations from a re-analysis of the deposited data

Results flagged for a closer look

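A gap test on 47 sets of 4 values (each member's log2 signal and the medians of its groups and partner lists) picked out 1, where chance gives about 1 in 20 (2.35 of 47). Itga3 had a log2 signal of 13.20 on array 3, below 13.58 to 13.64 on the others. Another probe set of Itga3 was highest on array 3, at 5192, with 2970, 3319 and 2408 on arrays 1, 2 and 4.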

How the results depend on the processing

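No paired analysis was possible because all 4 arrays form 1 group. Quantile normalization, and the probe set of highest mean alone, changed no call of the 34 members. The laminin count was 10 of 10 under every alternative run except probe sets without shared-sequence suffixes, which gave 8 of 9, with Lama3 at -0.67 (log2 ratio to the threshold, as below) and 5 of 7 epithelial genes above background (46.6% of all genes). With the 75th percentile as threshold (396 to 563 over the arrays), 12 of 16 alpha subunits and 11 of 12 broad-use genes passed, compared with 65.3% of all genes, and Itga5, Itgal, Itgb3 and Itgb8 were at 0.76, 0.36, 0.47 and 0.43. With the 99th percentile (1147 to 1581), the testis and retina background or limma, the leukocyte count was 1 of 7, and 48.2%, 48.6% and 51.1% of all genes passed in that order. Itga7, Itga9 and Itgb2 were at -0.26, -0.015 and -0.074 with the 99th percentile, and at -0.24, -0.0046 and -0.064 with the testis and retina background. By the median probe set the counts were 3 of 16 alpha subunits, 3 of 6 mesenchymal genes and 1 of 22 pairs, with Itga1, Itga4, Itga9, Itgav and Itgb1 at -0.18, -0.63, -0.15, -0.12 and -0.73. Leaving out 1 array gave 7 to 9 alpha subunits, 8 to 9 epithelial genes, 7 to 8 broad-use genes, 11 to 12 pairs and 46 to 47 partner genes, and did not move the laminin, beta subunit, mesenchymal, leukocyte or trimer counts. Itga2 and Itga2b were above background without array 4 and Itga9 without array 2, Itga5 ranged from -0.67 to 0.020 (without array 3) and Itga7 from -0.087 (without array 4) to 0.067. In the other use classes, Lama5, Itga2, Itga3 and Itga4 counted as broad use and Itgb3 as leukocyte. The counts were then 6 of 6 epithelial, 5 of 6 mesenchymal, 2 of 7 leukocyte and 10 of 15 broad-use genes, compared with 51.6% of all genes. The causes of these changes were not tested.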
